A study of Mus musculus with 28 samples.

Results

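Acetylation of histone H3 at lysine 9 (H3K9Ac, a mark of active promoters and other open chromatin) was mapped in B16 mouse melanoma cells with and without Setdb1. The comparison rests on the 6 H3K9Ac libraries whose titles name B16, out of 28 samples in the series, 24 of which have an island file here. The cells called KO were the melanoma line B16OVA transduced with the vector pCRISPR-v2-puro carrying a guide against Setdb1, in 3 libraries. Their controls were B16OVA cells given the same vector empty, in 3 libraries. Both had been under puromycin selection, so that every group shares the vector and the drug, and the labels describe transduced cells without naming a clone. Per the labels, chromatin of 2000000 cells was cut with micrococcal nuclease and precipitated with an antibody against H3K9Ac. The colon carcinoma line MC38, treated in the same way, gave 6 further H3K9Ac libraries, and H3K9me3 (trimethylation of the same lysine) was mapped in the same B16 cells in 6 libraries. The 4 input samples were not analysed here. The labels do not say that the replicates were separate cultures, so p-values measure only the spread between these samples.

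Setdb1 is a methyltransferase that places H3K9me3, mainly at retroelements and zinc finger gene clusters, to which KRAB zinc finger proteins and the corepressor Trim28 recruit it. Its partner Atf7ip stabilises it, and the HUSH complex spreads the mark it makes. A lysine residue of histone H3 carries either an acetyl group or methyl groups, so H3K9Ac and H3K9me3 cannot occupy the same residue. In bulk chromatin, fewer cells carrying a mark and less of the mark per cell cannot be told apart. The files list islands, which are stretches of the genome where a library was enriched for reads, each with its read count. A value of 0 thus means that no island was called.

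In KO cells H3K9Ac islands covered more of the genome than in controls and more of them were over 10 kb long, while the number of islands overlapped between the groups. Mean island width overlapped too, at 6.33, 5.55 and 5.27 kb in KO libraries and 4.58, 5.53 and 5.07 kb in control libraries. Islands covered 448.3, 442.9 and 436.7 Mb in KO libraries 1, 2 and 3, against 380.3, 382.2 and 423.4 Mb in control libraries 1, 2 and 3. The groups did not overlap. The means were 442.6 ± 5.78 Mb in KO and 395.3 ± 24.3 Mb in control libraries (SD, n = 3 each; two-sided exact permutation p = 0.1, the smallest that 3 against 3 allows). Same-numbered libraries deviated together in read level over regions, but not in covered length, where KO library 3 was lowest and control library 3 highest of its group. Within pairs 1, 2 and 3 the KO library covered 68.0, 60.7 and 13.4 Mb more (two-sided exact sign-flip p = 0.25, the smallest for 3 pairs). The third pair was thus much the smallest in its difference.

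The number of islands did not separate the groups, with 70849, 79855 and 82823 in KO libraries against 82995, 69171 and 83575 in control libraries (exact permutation p = 0.8). Within pairs 1, 2 and 3, length in islands over 10 kb was larger in KO by 96.28, 42.11 and 21.02 Mb. Over all islands the differences were 67.97, 60.65 and 13.38 Mb. Broad islands thus gained more than the whole difference in pairs 1 and 3 and most of it in pair 2. Islands over 10 kb numbered 10608, 9899 and 9532 in KO libraries against 7814, 8482 and 9120 in control libraries, without overlap (exact permutation p = 0.1). They held 243.3, 207.7 and 193.0 Mb in KO libraries, against 147.0, 165.6 and 172.0 Mb in control libraries. Islands over 50 kb numbered 691, 419 and 325 in KO libraries, against 164, 265 and 207 in control libraries. KO library 1 had the most of these and control library 1 the fewest.

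Some neighbouring islands of a control library were a single joined island in the KO library of its number. In pair 1, 16.2% of KO islands lay over 2 or more control islands, while 4.34% of control islands lay over 2 or more KO islands. In pair 2 the shares were 10.48% of KO islands and 9.84% of control islands. In pair 3 they were 10.9% of KO islands and 9.31% of control islands, so joining in favour of KO was large in pair 1 and slight in the other two.

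**Figure D1:**
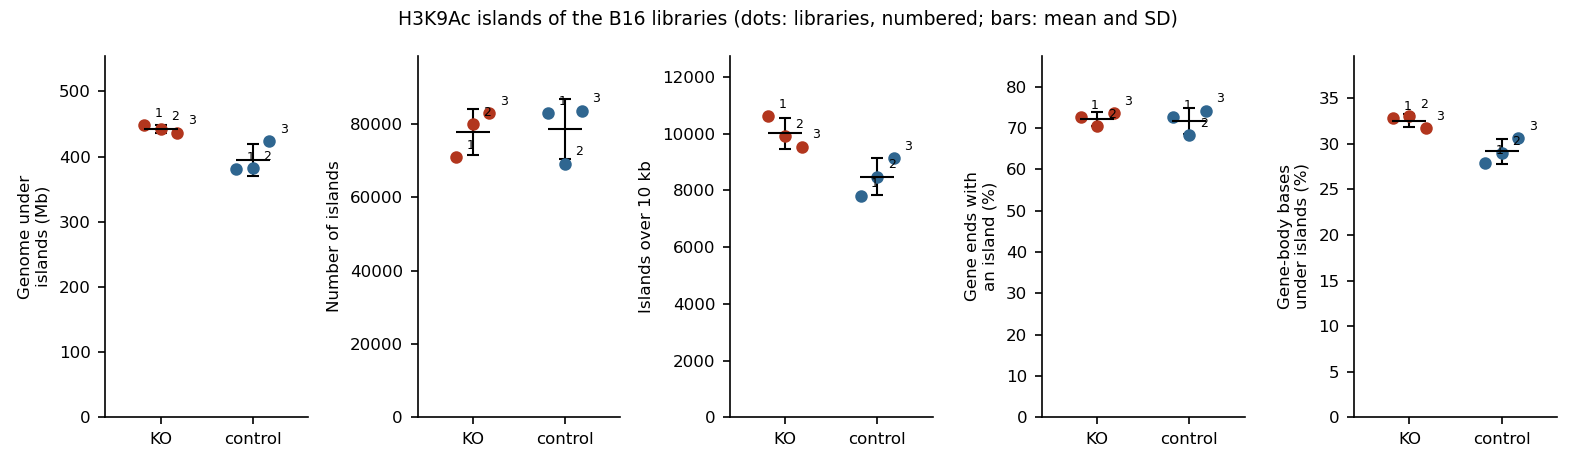
H3K9Ac islands in the 6 B16 libraries: Mb of genome covered, number of islands, number of islands over 10 kb, percent of protein-coding gene ends with an island, and percent of protein-coding gene-body bases under islands. Dots are libraries with their replicate number, and bars are the mean and SD of 3 libraries. Covered length, islands over 10 kb and gene-body bases lie higher in every KO library than in every control library, while island number and gene ends overlap.

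Depth and density overlapped between the groups, while covered length did not. KO libraries held 78082966, 75664167 and 46527837 island reads, against 52991726, 46392459 and 58867309 in control libraries. Within pairs 1, 2 and 3, KO minus control was 25090000, 29270000 and -12340000 island reads. The differences in covered length were 67.97, 60.65 and 13.38 Mb. Reads per kb of island were 174, 171 and 107 in KO libraries and 139, 121 and 139 in control libraries, which overlapped (exact permutation p = 0.5). The part of sequencing depth in the covered length was not tested beyond these values.

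Melanocyte genes carried H3K9Ac, as the label of the line implies. Of 14 melanocyte markers, 13 had an island at the gene end in all 6 libraries, among them Mitf, Sox10, Tyr, Dct, Pmel and Mlana, and only Ednrb had none. Their summed level was 848 to 991 reads per 1000000 counted reads (RPM) in KO libraries and 903 to 1041 RPM in control libraries. Among markers of other cell types, 4 of 12 for gut epithelium, 5 of 9 for fibroblasts and 4 of 9 for leukocytes had islands in all 6 libraries, while Fap, Lum and Dcn of the fibroblast list and Ptprc, Itgam and Adgre1 of the leukocyte list had none. The sums of these 3 lists overlapped between KO and control. At the end of Setdb1 itself, H3K9Ac was 57.6, 79.5 and 73.3 RPM in KO libraries and 64.5, 60.7 and 71.9 RPM in control libraries, but a guide acts on the coding sequence and acetylation there does not check the knockout.

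At gene ends, few loci differed past the threshold. The region of a gene end is 2 kb on both sides of the annotated end that holds more H3K9Ac reads over the 12 libraries of both lines, and levels are RPM of the reads in such regions, a scale of their own. Strand was known for 20157 of the 31664 ends measured, of which 13289 were 5′ and 6868 were 3′ ends. Of 31664 gene ends, 21 were called higher in KO (0.0663% of those tested) and 9 lower (0.0284%), by edgeR's quasi-likelihood test on the 12 H3K9Ac libraries of both lines at a Benjamini-Hochberg adjusted p under 0.05. Protein-coding genes made up 13 of these 30. With the 6 B16 libraries alone, 0 gene ends were called by edgeR, and 1169 had an unadjusted p under 0.05. DESeq2, run on the 12 libraries, called 547 higher and 418 lower. The edgeR calls were thus made only with the MC38 libraries in the fit.

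Of the 21 gene ends called higher, 17 had islands in every KO library and in no control library, and 4 of the 9 called lower had islands in every control library and in no KO library. All 21 of these on-and-off calls lay at ends with an island in all 6 MC38 libraries. Of the 127 other ends that were on in 3 libraries of B16 and off in the other 3, only 6 had islands in all 6 MC38 libraries. Whether an on-and-off end was called thus went with islands in MC38.

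The on-and-off calls at protein-coding genes with an established symbol were H2-T24, Faap20, Syna and Dnajc18. All had islands in the end region in KO and none in that region in control. H2-T24 is an MHC class I-like gene (chr17:36003471-36020800). Its end had 24.3, 36.8 and 35.7 RPM in the 3 KO libraries and no island in the 3 control libraries (adjusted p = 6.7e-05). Control islands stopped at -2.07, -2.07 and -2.47 kb from this end, just outside the region. Within the gene, control islands began at 11.53, 16.93 and 11.73 kb from it, so the locus was acetylated in controls too. Faap20, a component of the Fanconi anemia DNA repair machinery (chr4:155246904-155256687), had 48.5, 38.8 and 46.1 RPM at its 3′ end in KO libraries and no island in control libraries (adjusted p = 0.000231). The whole body of Faap20 nevertheless held 28.3, 21.7 and 23.4 RPM in KO libraries against 29, 22.6 and 19.3 RPM in control libraries, so its acetylation as a whole overlapped.

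Syna encodes syncytin-A, an envelope protein of retroviral origin that fuses trophoblast cells of the placenta. Its 5′ end (gene at chr5:134557254-134577038) had 42.0, 10.3 and 12.5 RPM in KO libraries and no island in control libraries (adjusted p = 0.0118), with KO library 1 far above the other two. The island there was 64.8 kb wide in KO library 1, 4.4 kb in KO library 2 and 1.2 kb in KO library 3. Outside the gene, control islands stopped at -2.16, -5.16 and -2.36 kb from this end, and further within Syna they began at 3.64, 3.04 and 3.64 kb. An annotated RefSeq promoter of Syna lies elsewhere within the gene (chr5:134560122-134560421, minus strand) and held no island in any of the 6 libraries. The end of Dnajc18, a gene of a J-domain co-chaperone on chromosome 18, had 25.4, 11.7 and 18.8 RPM in KO libraries and no island in control libraries (adjusted p = 0.00194). These 4 calls held when any of the 6 B16 libraries was left out and with the replicate number as a block. With only the denser islands of each library, those with a read density at or above its median, the calls at H2-T24 and Dnajc18 were lost (adjusted p = 0.965 and 1), and with 1 kb in place of 2 kb around gene ends that at Syna was lost (adjusted p = 0.446).

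At ends with islands in all 6 libraries, Kif17, Mob3a and Cfap20 were higher in KO. Kif17, a kinesin motor gene (chr4:138262251-138301973), had 33.1, 38.6 and 36.6 RPM at its 3′ end in KO libraries against 8.83, 11.4 and 12.4 RPM in control libraries, a log2 change of 1.73 (SE 0.24, adjusted p = 0.0264, and 0.0665 with the replicate block). Mob3a, of the MOB family of kinase regulators (chr10:80685253-80701820), had 67.2, 65.9 and 63.4 RPM in KO libraries against 33.5, 33.3 and 40.4 RPM in control libraries (log2 change 0.87, SE 0.11, adjusted p = 0.0158). Cfap20, a cilia-associated gene (chr8:95420249-95434869), had 58.9, 62.2 and 58.9 RPM in KO libraries against 31.2, 29.9 and 38.1 RPM in control libraries (log2 change 0.86, SE 0.12, adjusted p = 0.0323). KO and control libraries did not overlap at any of the 3, and the 3′ end was the end used for each. The island at Cfap20 was 16.8 to 17 kb wide in KO libraries and 3.8 to 4.4 kb in control libraries, and that at Mob3a 24 to 26 kb in KO libraries and 5.6 to 16.4 kb in control libraries, so wider islands went with higher levels there. In control libraries a separate island outside the gene ended at -4.05 kb from the end of Mob3a. In KO libraries the island there ran on to 2.15, 1.75 and 1.95 kb within the gene. At Kif17 control islands stopped at -1.43, -1.03 and -1.03 kb from the end, and KO islands at 0.573, 1.17 and 1.17 kb. The bodies of Mob3a and Cfap20 did not follow, with log2 changes of 0.19 and -0.14 and an adjusted p of 1 each, although with the denser islands only the body of Mob3a was called (log2 change 2.60, adjusted p = 0.0209). At the annotated 5′ end of Cfap20 the log2 change was -0.25 (adjusted p = 1), and with the denser islands only the end calls at Kif17, Cfap20 and Clcn6 were lost (adjusted p = 0.114, 1 and 0.0620). DESeq2's size factors in place of TMM also ended the calls at Cfap20 and Clcn6 (adjusted p = 0.0553 each).

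The gene ends called lower in KO that had islands in all 6 libraries sat in islands that were wider in every KO library. Kdm5a, which encodes an H3K4 demethylase (chr6:120364099-120444574), had 43.9, 49.5 and 46.3 RPM in KO libraries against 89.8, 105.5 and 114.5 RPM in control libraries (log2 change -1.15, SE 0.15, adjusted p = 0.0229, and 0.0946 with the replicate block). The island at this end was 53.8, 39.8 and 61.2 kb wide in KO libraries, against 8.4, 6.2 and 4.4 kb in control libraries. Over the whole gene body the order turned, with 189, 206 and 213 RPM for Kdm5a in KO libraries against 147, 182 and 185 RPM in control libraries (log2 change 0.24, adjusted p = 1). Ccdc77 begins beside this end, and its region holds nearly the same reads (log2 change -1.19, adjusted p = 0.0240, and 0.102 with the block).

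Clcn6, an endosomal chloride and proton exchanger gene (chr4:148004259-148038813), showed the same arrangement. Its 5′ end had 43.9, 45.3 and 42.1 RPM in KO libraries against 94.0, 97.2 and 77.5 RPM in control libraries (log2 change -1.03, SE 0.15, adjusted p = 0.0374, and 0.149 with the block), under islands of 30.0, 25.8 and 30.0 kb in KO libraries and 6.2, 6.4 and 6.2 kb in control libraries. Tnfrsf12a, the receptor of the cytokine TWEAK, and Hcfc1r1 overlap at their 3′ ends on chromosome 17 and share a region. It had 61.6, 60.5 and 53.8 RPM in KO libraries against 109.6, 95.5 and 91.7 RPM in control libraries (log2 change -0.75, SE 0.11, adjusted p = 0.0376), with islands of 13.8, 11.4 and 13 kb in KO libraries and 6.0, 6.0 and 5.0 kb in control libraries. Leaving out any KO library ended the calls at Mob3a, Cfap20, Kif17, Kdm5a, Ccdc77, Clcn6, Tnfrsf12a and Hcfc1r1, with adjusted p between 0.0518 and 0.166 over those fits. Leaving out control library 1 or 2 also ended those at Cfap20 and Clcn6, and leaving out control library 1 those at Tnfrsf12a and Hcfc1r1.

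Since the files give a count per island, a gene-end value is the island's reads spread evenly over its length. A summit joined to its flanks therefore reads lower at the summit and higher at the flanks. Of 21588 gene ends with islands in all 6 libraries, 15.2% lay in islands over 2 times wider in KO by mean width and 1.02% in islands over 2 times narrower. Among the 5464 of these ends that were at least 3.6 of 4 kb covered in every library, the 762 with wider KO islands had a median log2 change in level of -0.11, and 67.5% of them were below 0. The 4691 such ends with a width within 2 times had a median of -0.01, and 52.3% were below 0. Over the 5464 ends, Pearson's r of width change with level change was -0.33 and Spearman's rho -0.31, a description over gene ends, which share libraries and islands. Over all 21588 ends, many of them only partly covered, r was 0.02 and rho -0.04, and the ends in wider KO islands had a median of -0.03, with 53.7% below 0. How much of the lower or higher gene-end levels goes with the extent of islands alone was not tested.

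**Figure D2:**
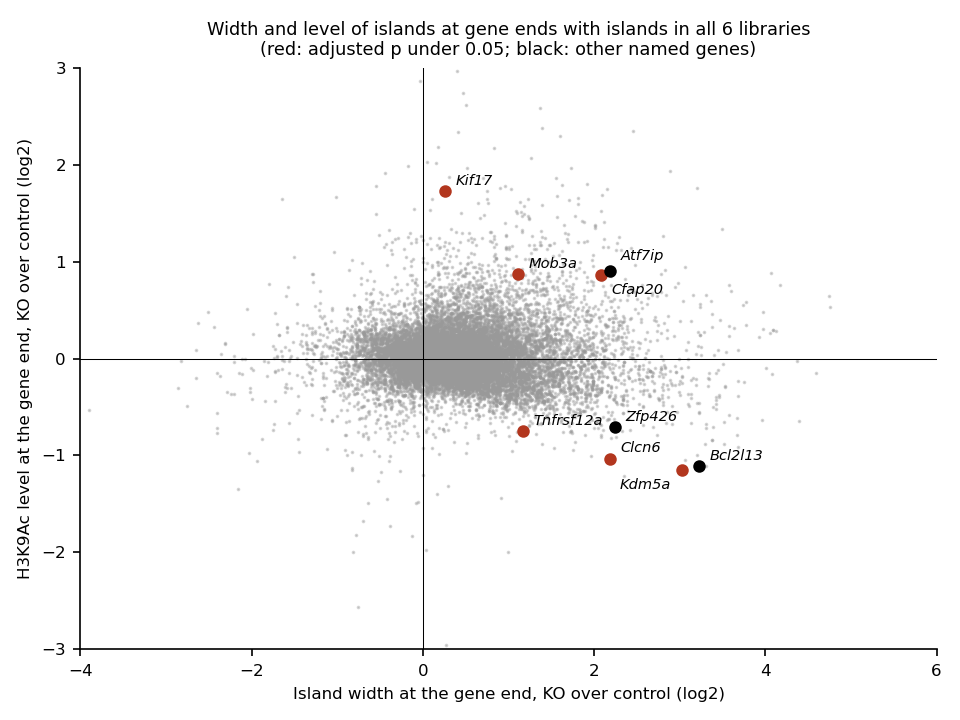
Change of island width at a gene end (x axis, log2 of KO over control) and change of H3K9Ac level there (y axis, log2 of KO over control) for gene ends with islands in all 6 B16 libraries. Red points are called at an adjusted p under 0.05 and black points are further genes described. Kdm5a, Clcn6 and Tnfrsf12a, called lower in KO, and Mob3a and Cfap20, called higher, all lie where KO islands are wider, while Kif17 lies near an equal width.

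The genes of next smallest p did not pass the test. On the higher side, Dbr1, the debranching enzyme of intron lariats, had 47.6, 47.5 and 47.8 RPM in KO libraries against 27.3, 32.1 and 27.2 RPM in control libraries (adjusted p = 0.0503), and Lca5l and Gal3st1 followed (adjusted p = 0.103 and 0.270). On the lower side, Bcl2l13, a mitochondrial outer membrane protein gene, had 40.1, 34.2 and 39.5 RPM in KO libraries against 88.5, 86.6 and 70.1 RPM in control libraries (adjusted p = 0.161), under islands of 42.4, 18 and 33.4 kb in KO libraries and 4.4, 3.0 and 2.6 kb in control libraries. Vps16, Tipin and Fastkd5 had adjusted p-values of 0.0900 to 0.125, and 0.0406, 0.0406 and 0.0472 with the replicate block, and also lay in wider KO islands.

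None of the most acetylated ends passed the test. Cdkn2c, a cyclin-dependent kinase inhibitor gene, had 126, 118 and 119 RPM in KO libraries against 141, 130 and 125 RPM in control libraries. The groups overlapped (log2 change -0.12, SE 0.14, adjusted p = 1). Meis2, Adgrl2, Cdkn1b and Otud1 were also among the 6 highest, with log2 changes of -0.19 to 0.01 and an adjusted p of 1. Actb had 70.3, 87.8 and 79.5 RPM in KO libraries and 74.8, 89.9 and 85.1 RPM in control libraries, and Gapdh had 63.8, 65.3 and 62.2 RPM in KO libraries and 57.8 to 66.8 RPM in control libraries.

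Within gene bodies the groups differed in covered length, and mostly one way. In protein-coding gene bodies, islands covered 32.8%, 33.0% and 31.7% of bases in KO libraries against 27.9%, 29% and 30.7% in control libraries, without overlap (exact permutation p = 0.1, the smallest possible). By mere presence, 72.6%, 70.4% and 73.6% of protein-coding gene ends had an island in KO libraries, against 72.6%, 68.3% and 74.2% in control libraries (exact permutation p = 0.8). Islands at those ends were wider in KO. Their median width was 11.6, 8.0 and 7.2 kb in KO libraries against 6.8, 7.0 and 6.2 kb in control libraries, without overlap (exact permutation p = 0.1). Of 16050 protein-coding bodies with an island in any of the 6 libraries, 2075 had a larger covered share in every KO library than in every control library (12.9%) and 76 a smaller one (0.474%). In MC38 the same counts were 264 and 334 of 16042, and MC38 covered lengths of the whole genome overlapped, at 441 ± 0.934 Mb in KO and 436 ± 36.3 Mb in control libraries (SD, n = 3 each; exact permutation p = 0.7).

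By read level, 22 of 29143 gene bodies were called higher in KO (0.0755%) and 4 lower (0.0137%) by edgeR, and 18 of the 22 and all 4 were on-and-off calls. The 22 on-and-off calls again all lay at bodies that every MC38 library marked, which held for 4 of the 94 on-and-off bodies that were not called. With the replicate block 17 were called higher and 1 lower. On the B16 libraries alone edgeR called 0, with 1105 at an unadjusted p under 0.05. Protein-coding bodies with an established symbol among the calls were Zfp426, Zfp866, Sirt5, F2r and Slc28a3, all higher.

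Zfp426, a KRAB zinc finger gene (chr9:20468549-20492746), had 54.4, 54.4 and 53.4 RPM over its body in KO libraries against 28.1, 31.0 and 29.5 RPM in control libraries. The log2 change was 0.87 (SE 0.09, edgeR adjusted p = 0.00984), and the call held without any of the 6 libraries in turn and with the replicate block (adjusted p = 0.0466). Islands covered 84.1%, 88.2% and 84.1% of the body in KO libraries against 36.1%, 49.4% and 50.2% in control libraries. At its 5′ end the level ran the other way, with 42.8, 42.7 and 42.0 RPM in KO libraries against 72.3, 75.4 and 61.2 RPM in control libraries (adjusted p = 0.570), where a control island of 4.8 to 5.2 kb had become an island of 22.4 to 24.8 kb in KO libraries. In MC38 the body held 47.4 ± 5.40 RPM in KO and 48.6 ± 2.97 RPM in control libraries (SD, n = 3 each), and the difference between the lines passed the test (adjusted p = 0.0333).

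Zfp866, a zinc finger gene (chr8:69761324-69774911), had 33.2, 41.3 and 29.4 RPM over its body in KO libraries against 10.62, 10.41 and 10.46 RPM in control libraries (log2 change 1.72, SE 0.19, adjusted p = 0.0119, and 0.0683 with the replicate block). Its covered share was 89.7%, 94.1% and 74.98% in KO libraries against 26.4%, 29.4% and 29.4% in control libraries. Sirt5, a mitochondrial lysine desuccinylase gene (chr13:43365389-43395203), had 35.3, 27.9 and 26 RPM over its body in KO libraries against 9.51, 5.22 and 4.39 RPM in control libraries (log2 change 2.22, SE 0.28, adjusted p = 0.0269). In control libraries little of Sirt5 was covered, at 6.08%, 3.39% and 2.72% of the body, against 62.4%, 47.7% and 41.0% in KO libraries. The Sirt5 call was lost without KO library 1, KO library 2 or control library 2 (adjusted p = 0.0901, 0.0515 and 0.0782), and when libraries were scaled by total island reads alone (adjusted p = 0.0579).

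F2r, which encodes the thrombin receptor PAR1, had 2.60, 2.66 and 6.20 RPM over its body in KO libraries and no island in control libraries (adjusted p = 0.00651, and 0.0901 with the block). Slc28a3, a nucleoside transporter gene, had 6.15, 4.65 and 8.30 RPM in KO libraries and no island in control libraries (adjusted p = 0.0325), a call lost without any of the 6 B16 libraries in turn (adjusted p between 0.0509 and 0.0962). With the denser islands only, none of the 5 body calls held (adjusted p = 0.544 for F2r, 0.236 for Zfp866, and 1 for Sirt5, Slc28a3 and Zfp426). F2r and Slc28a3 are low beside MC38, where F2r had 37.3 ± 11.1 RPM in KO and 37.2 ± 9.25 RPM in control libraries (SD, n = 3 each).

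Pank3 and Dkk4 narrowly missed the threshold. Pank3, a pantothenate kinase gene of coenzyme A synthesis, had 42.6, 42.6 and 40.6 RPM over its body in KO libraries against 28.3, 25.5 and 28.5 RPM in control libraries (adjusted p = 0.0603). Dkk4, a secreted inhibitor of Wnt signalling, had 8.48, 9.15 and 7.93 RPM in KO libraries against 1.94, 2.099 and 2.65 RPM in control libraries (adjusted p = 0.0844). On the side of lower levels no protein-coding body with an established symbol was called. The lowest p-value there belonged to Lamtor1, a gene of lysosomal mTORC1 signalling that was wholly covered in all 6 libraries, with 21.9, 24.5 and 25.6 RPM in KO libraries against 36.1, 36.5 and 34.0 RPM in control libraries (adjusted p = 0.278).

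**Figure D3:**
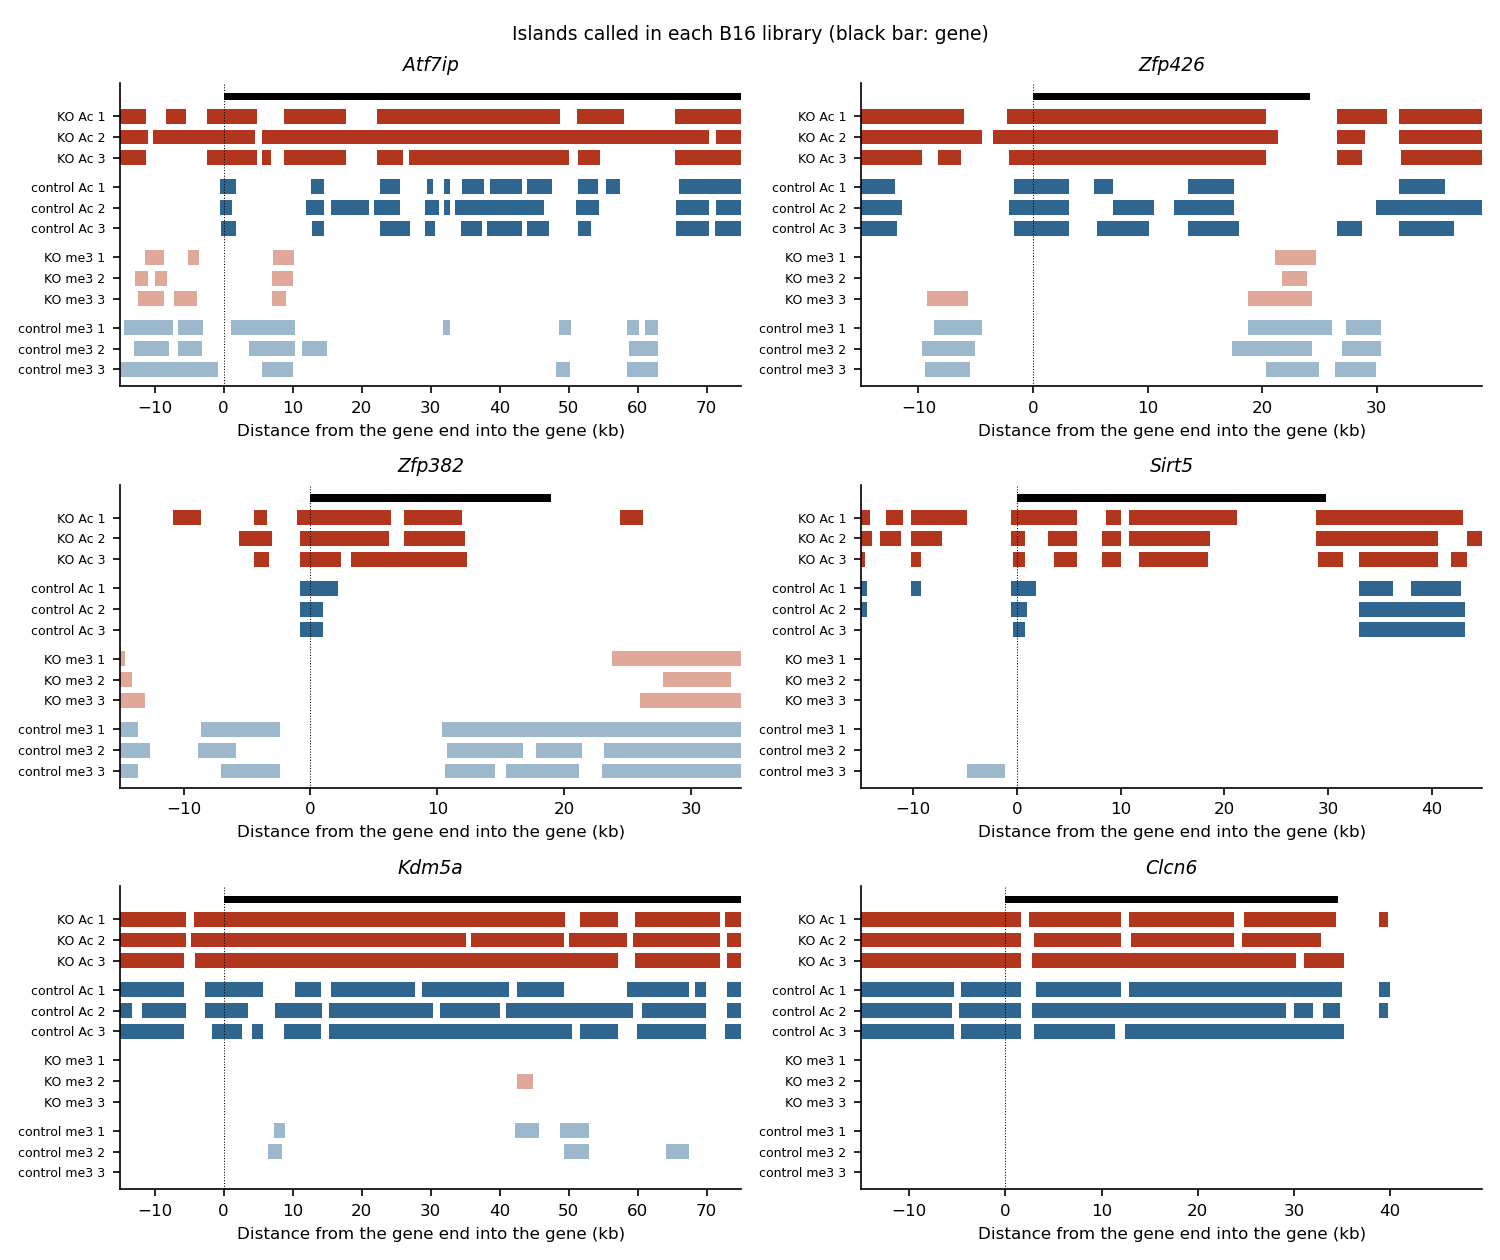
Islands of each B16 library along 6 genes, with distance in kb from the gene end into the gene on the x axis and 1 row per library: H3K9Ac in KO and control cells, then H3K9me3 (me3) in KO and control cells. Coloured bars are islands and the black bar is the gene, which runs past the right edge for Atf7ip and Kdm5a. At Atf7ip, Zfp426, Zfp382 and Sirt5 the KO H3K9Ac islands fill gaps that control libraries leave in the gene body, and at Zfp382 no KO library has an H3K9me3 island within the gene. At Kdm5a and Clcn6 the island at the gene end is wider in every KO library than in any control library.

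The zinc finger genes, many of which encode DNA-binding repressors, were covered more in KO at a larger share of bodies than protein-coding genes as a whole. Of 388 zinc finger bodies with an island, 100 were covered more in every KO library than in every control library (25.8%) and 1 less (0.258%), beside 12.9% and 0.474% of all protein-coding bodies. The list was drawn by symbol and holds some genes outside the protein-coding set, such as Zfp652os. Among the 16050 protein-coding bodies were 380 zinc finger bodies, of which 98 were covered more. Over the whole list, islands covered 40.1%, 40.2% and 37.4% of bases in KO libraries against 31.9%, 33.0% and 33.4% in control libraries. In pair 1, 283 of the 388 bodies were covered more in KO and 32 more in control. In pair 2 these were 239 and 65, and in pair 3 they were 254 and 74, so each pair leaned to KO. Of all 16050 protein-coding bodies, 61.6% were covered more in KO and 15.9% more in control in pair 1, 56.1% and 20.8% in pair 2, and 48.7% and 32.7% in pair 3, which leaned to KO as well. With the denser islands only, 49 zinc finger bodies were covered more in every KO library (12.6%), beside 7.51% of all protein-coding bodies.

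Starting coverage differs between lists, so the shares were also read by the coverage of control libraries. Among bodies of which controls covered 10% to 80%, 74 of 218 zinc finger bodies (33.9%) were covered more in every KO library, beside 17.2% of 8392 protein-coding bodies. Where controls covered under 10%, 19 of 97 zinc finger bodies (19.6%) were covered more, beside 4.71% of 2589. Above 80% the shares were 9.59% of 73 zinc finger bodies and 9.98% of 5069, so the zinc finger share was not larger there. Gene length was not matched: the median was 16.3 kb for zinc finger and 27 kb for protein-coding bodies at 10% to 80%, and 22.6 and 54.5 kb under 10%. By level, 57 of 366 zinc finger bodies with islands in all 6 libraries had every KO library above every control library and 7 every one below, beside 928 and 613 of 13979 protein-coding bodies. The median log2 change was 0.09 over the 366 zinc finger bodies and 0.00 over the 13979, and scaling by total island reads alone moved these medians to 0.05 and -0.04. At gene ends the zinc finger counts were on the other side, with 8 of 344 above and 27 below, beside 455 and 713 of 13064.

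Many zinc finger genes lie in clusters, and neighbours can share islands. Chromosome 7 held 31 of the 100 covered more, out of 95 zinc finger bodies there with an island. In MC38, 7 of 382 zinc finger bodies were covered more in every KO library and 5 less. Only Zfp426 and Zfp866 were called by level. Zfp248 and Zfp266 had the next values in level and did not pass (adjusted p = 0.259 and 0.496), but with the denser islands only the body of Zfp266 was called (log2 change 1.82, adjusted p = 0.0397). Zfp12, singled out after its values were seen, had the largest gain in covered share of the list, with 91.2%, 88.3% and 85.4% in KO libraries against 29.9%, 25.3% and 34.0% in control libraries, and no H3K9me3 island in any B16 library.

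H3K9me3 covered less of the zinc finger list in KO, where H3K9Ac covered more. Islands of H3K9me3 covered 11.3%, 10.3% and 12.8% of zinc finger body bases in KO libraries against 16.6%, 15.1% and 14.1% in control libraries. Over all protein-coding bodies they covered 8.42%, 8.71% and 9.36% in KO libraries against 6.64%, 7.49% and 6.28% in control libraries, the opposite order. Of 265 protein-coding bodies with an H3K9me3 island in all 3 control libraries and in no KO library, 55 had more H3K9Ac coverage in every KO library (20.8%). Of the 31 with H3K9me3 in all 3 KO libraries and in no control library, 1 had. Of the 2137 with H3K9me3 in all 6 libraries, 141 had (6.60%). Among the 10091 bodies with no H3K9me3 island at all, 13.7% had, so most of the bodies with wider H3K9Ac carried no H3K9me3 in either genotype. The zinc finger bodies covered more were 6 of 13 among the 265, 25 of 97 among the 2137 and 36 of 184 among the 10091. Most zinc finger bodies covered more thus did not meet the rule of complete H3K9me3 loss. The 265 bodies were long, with a median of 91.2 kb against 16.2 kb for the 10091, and length and coverage were not matched in this comparison.

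Zfp382, a zinc finger gene (chr7:30121833-30140758) singled out after its values were seen, had more H3K9Ac and less H3K9me3 in KO. Islands of H3K9Ac covered 58.0%, 58.0% and 61.1% of it in KO libraries against 11.5%, 5.12% and 5.12% in control libraries. H3K9me3 islands covered none of it in the 3 KO libraries, against 8.56, 7.16 and 7.56 kb in control libraries. Its body level was 29.3, 27.2 and 26.6 RPM in KO libraries against 11.7, 6.03 and 5.45 RPM in control libraries, without overlap, but it did not pass the test (log2 change 1.84, SE 0.43, adjusted p = 0.585). Zfp382 itself lies among the 265. Others with H3K9me3 in all 3 control libraries and no KO library and more H3K9Ac in KO were Zfp111, Zfp780b, Zfp952, Zfp764 and Zfp607a of the zinc finger list, and Tmem185b, Nlrp12, Cops7a and Hmox2 outside it, named here after their values were seen.

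Setdb1's partners and the HUSH complex formed a small list, in which 4 of 10 bodies were covered more in every KO library and 0 less, beside 12.9% and 0.474% of all protein-coding bodies. Atf7ip, whose product binds and stabilises Setdb1 (chr6:136518789-136610850), had the smallest p of the list over gene bodies. Its body held 224, 287 and 218 RPM in KO libraries against 132, 168 and 132 RPM in control libraries, without overlap, and did not pass (log2 change 0.75, SE 0.22, adjusted p = 0.743). With the replicate number as a block it did pass (adjusted p = 0.0281). Islands covered 80.2%, 97.8% and 77.2% of it in KO libraries against 52.6%, 59.6% and 52.2% in control libraries. H3K9me3 covered 3.0, 3.0 and 2.0 kb of the same body in KO libraries, against 16, 14.6 and 11 kb in control libraries. At its 5′ end, described after its values were seen, H3K9Ac was 69.0, 51.8 and 63.1 RPM in KO libraries against 34.9, 36.8 and 26.4 RPM in control libraries, with an island of 7.2, 14.8 and 7.2 kb in KO libraries and of 2.4, 1.8 and 2.2 kb in control libraries. The difference there did not pass either (log2 change 0.91, SE 1.05, adjusted p = 1).

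Morc2a, an ATPase gene that works with HUSH, was covered at 97.6%, 79.7% and 88.4% in KO libraries against 74.3%, 78.2% and 76.3% in control libraries, and carried 2.2, 4.6 and 3.0 kb of H3K9me3 in control libraries and none in KO libraries (level adjusted p = 1). Cbx5, which encodes the H3K9me3 reader HP1α, had 51.1, 57.8 and 59.9 RPM at its 5′ end in KO libraries against 72.4, 66.7 and 63.0 RPM in control libraries (adjusted p = 1). The island at that end was 111.4, 49.6 and 18.8 kb wide in KO libraries and 14.8 to 17 kb in control libraries.

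The promoters of the zinc finger genes and of Atf7ip that held islands in all 6 libraries are shown with every CG dinucleotide in capitals, since CG-rich promoters are the ones most often acetylated. Each runs from 250 bases before to 50 after the annotated start, 5′ to 3′ on the gene's strand, from RefSeq on build GRCm38.p6. They lie at chr6:136518601-136518900 (plus strand, Atf7ip), chr9:20492697-20492996 (minus strand, Zfp426) and chr7:30121682-30121981 (plus strand, Zfp382), and hold 29, 21 and 32 CG dinucleotides.
Atf7ip: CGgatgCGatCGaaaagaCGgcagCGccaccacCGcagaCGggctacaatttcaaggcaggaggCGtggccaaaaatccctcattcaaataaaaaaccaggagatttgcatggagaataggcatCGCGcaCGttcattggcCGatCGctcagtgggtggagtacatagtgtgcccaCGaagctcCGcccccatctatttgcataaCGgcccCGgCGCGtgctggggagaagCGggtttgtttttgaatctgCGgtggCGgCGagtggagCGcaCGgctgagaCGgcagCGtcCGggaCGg
Zfp426: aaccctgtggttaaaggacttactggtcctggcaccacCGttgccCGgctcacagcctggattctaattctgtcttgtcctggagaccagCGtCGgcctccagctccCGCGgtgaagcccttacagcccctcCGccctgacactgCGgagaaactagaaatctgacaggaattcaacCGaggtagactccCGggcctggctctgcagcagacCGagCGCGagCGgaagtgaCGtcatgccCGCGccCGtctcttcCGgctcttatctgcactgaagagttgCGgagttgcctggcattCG
Zfp382: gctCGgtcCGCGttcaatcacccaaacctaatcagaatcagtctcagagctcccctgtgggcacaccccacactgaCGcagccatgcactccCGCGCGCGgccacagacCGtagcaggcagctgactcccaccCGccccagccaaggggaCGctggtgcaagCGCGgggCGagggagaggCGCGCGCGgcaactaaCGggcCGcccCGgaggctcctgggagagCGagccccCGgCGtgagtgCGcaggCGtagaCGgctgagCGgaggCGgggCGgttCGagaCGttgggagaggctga
All 3 are acetylated in both genotypes, and in KO their islands reached further into the gene, as the map of islands along genes shows.

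Promoters that held an island in every KO library and in no control library held fewer CG dinucleotides, by the median, than those with islands in all 6 libraries. Of 19474 promoters of protein-coding genes in the RefSeq table, which matched 15908 of 19923 genes, 36 promoters of 33 genes were of this kind and 6 were the reverse, while 11277 had islands in all 6 libraries. The 36 had a median of 8 CG dinucleotides (quartiles 4 and 14.3), against 21 in the 11277, 4 in the 5915 with no island and 14 over all. The GC box, read as the letters GGGCGG on either strand, lay in 16.7% of the 36, 64.8% of the 11277, 24.01% of the 5915 with no island and 48.8% of all. These shares were not tested. Zfp111 and Zscan2, zinc finger genes on chromosome 7, were chosen after their values were seen, and each had a second annotated promoter of this kind beside a promoter with islands in all 6 libraries.

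The KO-only promoter of Zfp111 lies at chr7:24203534-24203833 (minus strand) and holds 1 CG dinucleotide. That of Zscan2 lies at chr7:80861858-80862157 (plus strand) and holds 3. They are shown with CG in capitals, to be set beside the CG-rich promoters above.
Zfp111: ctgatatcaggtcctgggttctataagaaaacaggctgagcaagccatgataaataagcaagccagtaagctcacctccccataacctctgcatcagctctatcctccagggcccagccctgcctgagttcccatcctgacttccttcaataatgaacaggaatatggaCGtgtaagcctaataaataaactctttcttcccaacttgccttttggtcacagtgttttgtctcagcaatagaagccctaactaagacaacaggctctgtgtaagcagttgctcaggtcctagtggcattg
Zscan2: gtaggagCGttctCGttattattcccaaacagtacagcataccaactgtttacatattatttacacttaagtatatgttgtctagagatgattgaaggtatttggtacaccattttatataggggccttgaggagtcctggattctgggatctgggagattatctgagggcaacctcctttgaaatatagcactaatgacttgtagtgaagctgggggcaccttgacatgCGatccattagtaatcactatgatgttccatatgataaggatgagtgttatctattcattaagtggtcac
The KO-only promoters also included those of Hmox2, a haem oxygenase gene, Fgfr2, a fibroblast growth factor receptor gene, P2rx7, an ATP-gated channel gene, and Hoxa2, a homeobox gene of hindbrain patterning. Promoters with islands only in control libraries were those of Gpr65, Lcn11, Lig1, Nr2f1, Serpinb1b and Zmynd10. The shared islands of neighbouring genes were not separated in these counts.

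No member of the interferon or MHC class I lists passed the test. H2-T24, the MHC class I-like gene called at its end, is not on the MHC class I list. Of 42 measured bodies of the list of interferon and nucleic acid sensing, 7 were covered more in every KO library (16.7%, near the 12.9% of all protein-coding bodies) and 0 less, and no member was called by level at its end or body. Tbk1, the kinase that activates Irf3, had 51.9, 46.4 and 49.4 RPM over its body in KO libraries against 32.9, 20.2 and 38.4 RPM in control libraries, without overlap (adjusted p = 0.996). Oas1b, of the oligoadenylate synthetases that sense double-stranded RNA, had 17.5, 14.4 and 15.3 RPM in KO libraries against 7.55, 3.52 and 7.50 RPM in control libraries (adjusted p = 1). Ifngr2, a chain of the interferon gamma receptor, had a lower value at its 5′ end, with 43.8, 48.3 and 63.8 RPM in KO libraries against 91.5, 95.4 and 75.4 RPM in control libraries (adjusted p = 0.715), under islands of 36.6, 30.2 and 9.2 kb in KO libraries and 5.0 to 5.2 kb in control libraries.

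Of 21 MHC class I bodies, 1 was covered more in every KO library and 1 less (4.76% each, beside 12.9% and 0.474% of all protein-coding bodies). Tap2, which loads peptide for MHC class I, had 33.9, 30.8 and 31.7 RPM at its end in KO libraries against 29.4, 20.2 and 25.1 RPM in control libraries (adjusted p = 1). Cd274, the gene of the checkpoint ligand PD-L1, had 41.3, 47.2 and 40.9 RPM at its 5′ end in KO libraries against 40.7, 33.9 and 31.6 RPM in control libraries (adjusted p = 1). Neither group of 3 overlapped with its counterpart, and neither difference passed the test.

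**Figure D4:**
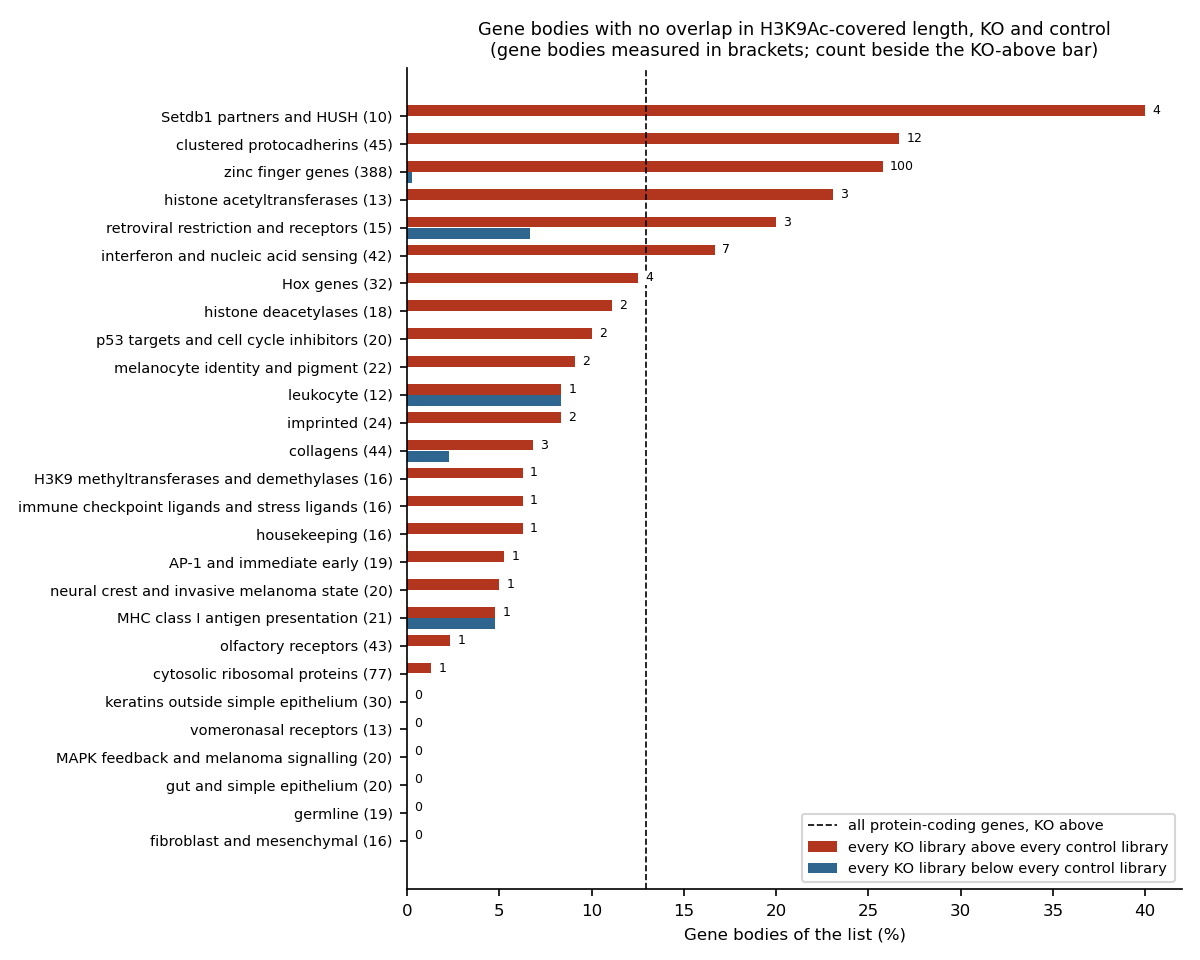
Percent of the gene bodies of each list with an H3K9Ac-covered length that did not overlap between the genotypes, by list. Red bars count bodies with every KO library above every control library and blue bars those with every KO library below, the number measured stands in brackets, and the dashed line is the KO-above share of all protein-coding bodies, 12.9%. The zinc finger list stands at 25.8% with 100 bodies, while small lists rest on few bodies, such as 4 of 10 for Setdb1 partners and HUSH.

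The clustered protocadherins, cell adhesion genes on chromosome 18 that share overlapping annotation and islands, had 12 of 45 bodies covered more in every KO library (26.7%, beside 12.9% of all protein-coding bodies) and 0 less (beside 0.474%). Their bases under islands were 8.18%, 17.5% and 10.8% in KO libraries against 6.83%, 7.64% and 4.70% in control libraries. Pcdhga2 had 85.1, 163 and 104 RPM over its body in KO libraries against 69.3, 88.6 and 51.2 RPM in control libraries, which overlapped (adjusted p = 0.976), and its H3K9me3 islands covered 0, 2.8 and 0 kb in KO libraries against 41.6, 27.4 and 19.8 kb in control libraries. As the annotated members overlap, the 12 are not separate loci.

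Among the genes of retroviral restriction and receptors, Syna was the call at gene ends described above, and 3 of 15 bodies were covered more in every KO library and 1 less, beside 12.9% and 0.474% of all protein-coding bodies. Zfp809, whose product directs silencing to the primer binding site of proviruses in mouse stem cells, was covered at 26.5%, 13.8% and 34.2% in KO libraries against 3.99%, 4.69% and 3.28% in control libraries (level adjusted p = 1). Of 22 melanocyte identity bodies, 2 were covered more (9.09%, near the share of all protein-coding bodies) and 0 less. Kit, the receptor that melanocytes need to survive, had 30.4, 29.3 and 26.1 RPM over its body in KO libraries against 16, 11.4 and 17.3 RPM in control libraries, without overlap (adjusted p = 0.976). Hoxa6, a homeobox gene, had 19.5, 19 and 21 RPM in KO libraries against 10.8, 9.26 and 9.40 RPM in control libraries (adjusted p = 0.585). No member of the germline, Hox, imprinted, olfactory, vomeronasal, keratin or collagen lists was called at its end or body.

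The ribosomal protein genes had counts on the other side by level. Of 77 bodies with islands in all 6 libraries, 0 had every KO library above every control library and 25 every one below, and the median log2 change was -0.21 (-0.25 when scaled by total island reads alone), beside 928, 613 and 0.00 over 13979 protein-coding bodies. No member was called. Rps3a1 had 14.2, 15.4 and 17.1 RPM over its body in KO libraries against 22, 20.8 and 20.3 RPM in control libraries (adjusted p = 0.729). These short genes were nearly wholly covered in both genotypes, at 98.4%, 97.2% and 96.1% of bases in KO libraries and 97.2%, 95.4% and 94.1% in control libraries. The islands at their ends had a median width of 14.2 kb in KO and 11.2 kb in control libraries.

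Genome-wide, in 5 kb windows, 1323 of the 179415 windows with an island in any of the 6 libraries were gained in KO (0.737%), meaning that islands took up 500 bp or more in each KO library and nothing in any control library. The reverse, windows lost, numbered 178 (0.0992%). Within pairs, windows with an island in the KO library only and in the control library only numbered 13624 and 9344 in pair 1, 20501 and 5261 in pair 2, and 13686 and 13858 in pair 3. Pair 3 thus showed no excess for KO. It is also the pair in which KO held fewer reads, and the part of depth was not tested. Without any of the 6 libraries in turn the gained windows numbered 2085 to 2671 and the lost windows 302 to 1528.

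By level, edgeR called 286 of 201802 windows higher (0.142%) and 36 lower (0.0178%), and 187 and 30 with the replicate block. With the B16 libraries alone it called 0, with 5618 at an unadjusted p under 0.05. Of 295 on-and-off calls, 294 had islands in all 6 MC38 libraries. The 5 windows of smallest p on the higher side had no island in control libraries and lay in Fbxw4, Sirt5 and B3gnt3 and in 2 stretches with no protein-coding gene. The window in Fbxw4 (chr19:45595001-45600000) had 7.04, 8.21 and 7.03 RPM in KO libraries, on the scale of windows (adjusted p = 0.000173), and that in Sirt5 (chr13:43380001-43385000) had 6.00, 5.29 and 5.45 RPM in KO libraries (adjusted p = 0.000251). On the lower side, 2 adjacent windows in Nup210l, and others in Srgap3, Trim16 and Fgd3, had islands in all 3 control libraries and none in KO libraries. The window in Nup210l at chr3:90155001-90160000 had 8.21, 7.98 and 7.87 RPM in control libraries (adjusted p = 0.000173).

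Most gained windows stood alone: 1071 had no gained neighbour, and 109 runs held 2 windows, 10 held 3 and 1 held 4. The longest run covered 20 kb of Sp3, a gene of a GC-box binding factor (chr2:72950001-72970000), where islands filled 13.2, 16.8 and 8.4 kb in KO libraries and none in control libraries. Runs of 15 kb lay in Ppp1r9a (chr6:4955001-4970000), in Nfatc3, a calcium-regulated transcription factor gene (chr8:106065001-106080000), and at 8 other places. H3K9me3 islands lay in some of them, for example at Gm11981 (chr11:6705001-6720000), with 0, 4.0 and 1.8 kb in KO libraries against 10.2, 13 and 12.2 kb in control libraries. In another, outside annotated genes (chr11:61625001-61640000), H3K9me3 islands took up 2.8, 8.6 and 12.6 kb in KO libraries against 9.4, 9.0 and 6.4 kb in control libraries, which overlapped. At Sp3, Ppp1r9a and Nfatc3 no library had an H3K9me3 island. The longest lost runs were 15 kb in Parp12, a PARP family gene (chr6:39085001-39100000), and 15 kb over Ighg2b in the immunoglobulin heavy chain locus (chr12:113300001-113315000). A run of 10 kb in Tshz2 stood next, tied in length with others. Chromosome 6 held 43 of the 178 lost windows and 76 of the 1323 gained. These were 0.338% and 0.598% of its 12711 windows with an island, beside 0.0992% and 0.737% over all chromosomes. Adjacent windows are not separate loci.

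Of the gained windows, 56.7% lay in protein-coding bodies and 11% near a gene end, against 67.4% and 21.4% of windows with any island. A neighbour with islands in all 6 libraries stood next to 43.6% of them, against 62.0% of windows with any island. Their signal was low, with medians of 3.43, 3.76 and 3.57 RPM in the 3 KO libraries, against 7.06, 7.06 and 6.81 RPM over windows with an island. Zinc finger bodies held 34 gained windows (2.57%, against 1.04% of windows with any island) and 0 lost ones. Of the 1323, 12 were also gained in MC38 by the same rule (0.907%, against 0.198% of windows with any island), and 251 had islands in all 6 MC38 libraries (18.97%, against 44.7%). Windows with any island include 90960 with islands in all 6 B16 libraries, which a gained window cannot be. Of those 90960, 84.8% had a neighbour of their own kind and 79.85% lay in protein-coding bodies. Islands in all 6 MC38 libraries were at 70.3% of them. The shares of windows with any island are thus no like-for-like background for gained windows.

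H3K9me3 marked a smaller share of gained windows in each KO library than in each control library. It was found at 14.7%, 22.4% and 22.9% of them in KO libraries, against 31.3%, 31.2% and 24.4% in control libraries, without overlap. At lost windows it marked 23%, 38.2% and 34.8% in KO libraries against 25.8%, 32.6% and 28.7% in control libraries, which overlapped. Over windows with any H3K9Ac island the shares were 8.99%, 15.7% and 14.8% in KO libraries against 14%, 16.2% and 12.8% in control libraries. Those windows again include the ones with H3K9Ac islands in all 6 libraries. H3K9me3 met a rule of complete loss, present in all 3 control libraries and in no KO library, at 35 of the gained windows (2.65%, against 0.753% of windows with any H3K9Ac island). The remaining gained windows did not meet that rule.

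**Figure D5:**
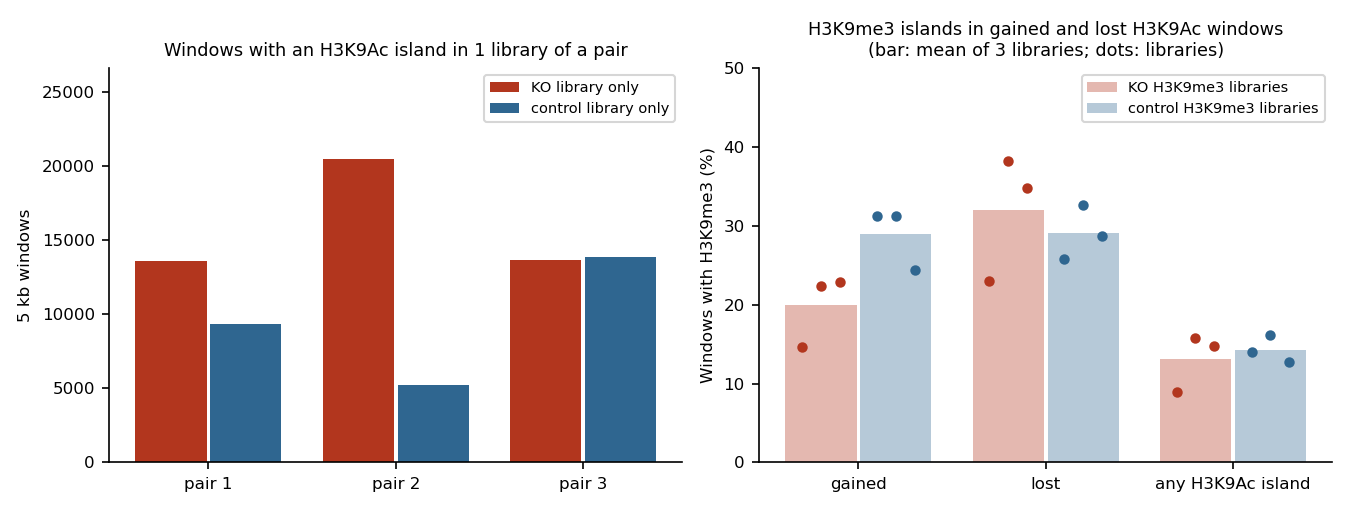
Left, number of 5 kb windows with an H3K9Ac island in 1 library only of each same-numbered pair, KO beside control. Right, percent of gained, lost and all H3K9Ac windows that held an H3K9me3 island, with bars for the mean of 3 libraries and dots for libraries, KO beside control. Windows present in KO only outnumber the reverse in pairs 1 and 2 but not in pair 3, and H3K9me3 marks fewer gained windows in each KO library than in each control library.

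Between the lines, the KO effect at gene ends differed at 41 of 31664 ends (0.129%) by the interaction test of edgeR, among them the 4 named on-and-off genes. Ends called in B16 by the same fit made up 20 of the 41. For these the interaction is not independent of the B16 call. At H2-T24, MC38 had 54.3 ± 6.34 RPM in KO and 53.7 ± 3.63 RPM in control libraries (SD, n = 3 each), at a level above that of B16 KO. At the ends of Kdm5a and Mob3a the interaction did not pass (adjusted p = 0.0874 and 0.0555), so their changes in B16 are not shown to differ from MC38.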

How the data were processed

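H3K9Ac chromatin immunoprecipitation was analysed in 3 KO and 3 control libraries of B16, with 6 MC38 H3K9Ac and 6 B16 H3K9me3 libraries beside them. Each deposited file lists islands with chromosome, start, end and a read count per island, which the authors called separately in each library. Per the submitters' processing notes, the tools were cutadapt, Bowtie2 2.1.0, SAMtools 0.1.8, SICER 1.1 and deepTools 3.1.1 on build mm10; which input served as background is not given in the sources used here. Reads outside islands are not in these files, so a weak signal that missed the calling threshold is 0.

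Island reads on chromosomes 1 to 19 and X were shared out by overlap over 5 kb windows, gene bodies and regions of 2 kb on both sides of gene ends, and rounded. Genes came from a RefSeq table of GRCm38.p6 with 49554 genes, 19923 of them protein-coding with an established symbol. Regions with a mean of at least 10 reads were fitted with edgeR 4.0.16 (quasi-likelihood, TMM) in R 4.3.3 over the 12 H3K9Ac libraries with line and genotype as terms, and adjusted p-values cover all regions of a kind. RPM are reads per 1000000 counted reads after TMM, separately for ends, bodies and windows, so levels of the 3 kinds are not on 1 scale. Single values per library were compared by exact permutation, which cannot go below p = 0.1 for 3 against 3. Alternatives were DESeq2 1.42.0, limma 3.58.1 on log2(RPM + 0.5), other scalings and minimums, the B16 libraries alone, denser islands, other region sizes, each library left out and the replicate number as a block. The fits were tested on simulated data. The limma fit with the block, the leaving-out for covered bodies and the windows per pair were chosen after seeing the data.

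The labels give KO and control the same replicate numbers. Deviations from the group means correlated at 0.289, 0.444 and 0.400 for numbers 1, 2 and 3 over 21588 gene ends, at 0.431, 0.618 and 0.583 over 21272 bodies, and at 0.307, 0.531 and 0.453 over 96695 windows, so the numbers pair the libraries. Unequal numbers correlated at -0.552 to 0.0501. Deviations from a group mean cancel out within the group, so positive values for equal numbers bring negative ones for unequal numbers on average. The values for unequal numbers are thus not independent support.

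Genes were named by rule: in each direction up to 10 protein-coding gene ends or bodies, called ones first and then those of smallest p whose groups do not overlap, up to 3 of each list, the 6 highest ends, and Setdb1, Actb and Gapdh. Windows were the 5 of smallest p and the longest runs. The members and the 27 gene lists were chosen with earlier results of these data known. Some genes that met the rule are not reported here.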

Additional observations from a re-analysis of the deposited data

Results flagged for a closer look

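The KO effect differed between B16 and MC38 at 7 of the named genes, by the interaction term of edgeR's quasi-likelihood test over the 12 H3K9Ac libraries. At gene ends the adjusted p of the difference was 0.0001141 for H2-T24, 0.0006529 for Faap20, 0.00353 for Dnajc18 and 0.01735 for Syna. Over gene bodies it was 0.007547 for F2r, 0.04123 for Slc28a3 and 0.03331 for Zfp426. In all 7 the B16 KO libraries were higher than the B16 controls. MC38 levels were, for example, 45.2 ± 13.7 RPM in KO and 33.9 ± 9.18 RPM in control libraries at Faap20, and 38.5 ± 28.9 RPM in KO and 40.1 ± 21.4 RPM in control libraries over Slc28a3 (SD, n = 3 each). For 6 of the 7, all but Zfp426, B16 control libraries had no island in the region counted, while all 6 MC38 libraries had one. All 7 were named because the same fit called them in B16. The interaction test is therefore not independent of that choice and adds no separate support.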

How the results depend on the processing

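With DESeq2's size factors, total island reads as scaling, either other read minimum or 1 kb around gene ends, the counts of calls stayed within 1.5 times, but not every named call held. DESeq2's size factors ended those at the ends of Cfap20 and Clcn6, total reads that at the body of Sirt5, and 1 kb regions those at the ends of Syna, Clcn6, Tnfrsf12a and Hcfc1r1 (adjusted p = 0.446, 0.0665, 0.0671 and 0.0671), while Tipin was called there (0.0323). DESeq2 called 547 gene ends higher and 418 lower, 1274 interactions at gene ends, 478 bodies higher and 331 lower, and 6352 windows higher and 3259 lower. In the B16 libraries alone, with or without the replicate block, edgeR called 0 ends, 0 bodies and 0 windows in either direction, and limma on regions with islands in all 6 libraries called 0 of each, also with the block. The unadjusted p was under 0.05 at 1169, 1105 and 5618 of them in edgeR without the block. With annotated 5′ ends only, 9 ends were higher, 1 lower and 20 interactions were called, over fewer ends tested, and 2 of the 9 named end calls with an annotated 5′ end held. With the replicate block in the 12 libraries, 187 windows were higher and 1 body was lower. The block ended the calls named above and made those at Vps16, Tipin, Fastkd5 and the body of Atf7ip, and it changed no other call at a named gene.

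Windows of 10 kb gave 108 higher and 15 lower, 585 gained and 116 lost. Denser islands gave 35 bodies higher and 9 lower, 858 windows gained, and 49 zinc finger and 1206 protein-coding bodies covered more in every KO library. The log2 change turned to -0.25 at the annotated 5′ end of Cfap20. Leaving out each B16 library in turn gave 27 to 58 ends higher and 6 to 38 lower, 34 to 80 interactions, 22 to 47 bodies higher and 4 to 27 lower, 297 to 692 windows higher and 48 to 206 lower, 2085 to 2671 windows gained and 302 to 1528 lost, 112 to 144 zinc finger and 2349 to 3486 protein-coding bodies covered more. Without control library 2 the lost windows were the 1528. The covered-length difference stayed between 39.8 and 61.4 Mb. The cause of these shifts was not tested, except that non-overlap is easier to meet with fewer libraries. Depth limits what an island file can show: a region without an island is not a region without reads, and no interval can be given for it.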
